A study of Homo sapiens with 24 samples.

Results

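The values below are those of 57 genes of oxidative phosphorylation: the 13 mRNAs encoded by the mitochondrial genome and 44 nuclear genes for subunits of respiratory complexes I to IV. The genes were chosen by name with earlier results of these data known, though the rule itself uses no measured value. Each name matched 1 row among the 58381 gene IDs of the deposited table, and 57 of 57 had a mean of at least 0.5 FPKM (fragments per kilobase of transcript, scaled to the mapped fragments of the library), which put them among the 14228 genes tested. Of the mitochondrial mRNAs, 7 encode subunits of complex I, 1 of complex III, 3 of complex IV and 2 of ATP synthase (complex V). Of the nuclear genes, 22 encode subunits of complex I, 4 of complex II, 7 of complex III and 11 of complex IV.

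The respiratory chain of the inner mitochondrial membrane passes electrons from NADH (complex I) and succinate (complex II) through complexes III and IV to oxygen, and the protons it pumps drive ATP synthase. Complexes I, III, IV and V are built from subunits of both genomes, whereas every subunit of complex II is nuclear. The mitochondrial mRNAs are cut out of long precursor RNAs that are transcribed from both strands of the circular genome. The nuclear subunits are transcribed as separate genes and their proteins are imported. Inorganic arsenic (iAs) binds thiol groups of proteins and is known to disturb mitochondrial respiration.

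HaCaT cells are human skin keratinocytes that grow without limit in culture and are not malignant. The labels describe 3 clonal lines transduced with hsa-miR-186 and 3 transduced with an empty vector, each kept in 100 or 0 nM iAs, with RNA taken at weeks 29 and 12. This gives 8 groups of 3 libraries: miR-186 clones at 100 nM, miR-186 clones at 0 nM, vector clones at 100 nM and vector clones at 0 nM, each at week 29 and at week 12. All groups carry a transduced construct, and what drives its expression is not given in the sources used here. The labels call the 3 libraries of a group independent biological triplicates and do not tie a number to a clone, so the p-values below measure the spread between these libraries.

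FPKM sums ran from 712797 to 905683 per library, with 13803 to 14588 genes at 0.5 FPKM or more, and read depth is unknown because the table holds no counts. The construct could not be checked: the MIR186 row holds 0 in each of the 24 libraries, and mature microRNAs are not captured by a poly(A) protocol. All 8 keratinocyte markers had a median of at least 0.5 FPKM, and their sum ran from 1354 to 5616 FPKM. The leukocyte list summed to 0.622 FPKM at most, with 0 of 4 markers reaching that median, the melanocyte list to 2.37 FPKM with 1 of 4, and the fibroblast list to 17.6 FPKM with 2 of 5. Of 3 endothelial markers, CDH5 stood at 3.67 to 20.6 FPKM while PECAM1 stayed below 0.1 FPKM and VWF below 0.933 FPKM. Several libraries stood apart. Replicate 2 of the miR-186 clones at 100 nM and week 12 held the lowest value of 26 of the 44 nuclear subunits and the highest value of 8 of the 13 mitochondrial mRNAs. Replicate 3 of the vector clones at 100 nM and week 12 had the steepest rise of expression with gene GC content, 0.427 log2 units per 10 percentage points of GC. The other libraries lay between -0.369 and 0.369, the upper value being that of replicate 2 of the miR-186 clones just named. Replicate 2 of the vector clones at 0 nM and week 12 held the highest value of 17 of the 44 nuclear subunits. The lowest value of 9 of the 13 mitochondrial mRNAs was in replicate 1 of the vector clones at 100 nM and week 29. Replicate 2 of the miR-186 clones at 0 nM and week 29 held the highest value of 5 of the 13.

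The mitochondrial mRNAs were among the most abundant RNAs measured. FPKM divides by transcript length, but the order of these values need not be that of the mRNA amounts. MT-ATP8 and MT-ATP6 lie on the same mature mRNA, as do MT-ND4L and MT-ND4, yet the means within each pair differ. Whether the poly(A) protocol captured all of these mRNAs evenly was not tested. MT-CO2, a catalytic subunit of complex IV that receives electrons from cytochrome c, was highest, with a mean of 23451 FPKM over the 24 libraries (lowest 14868, median 22227, highest 38573). Next came MT-CO3 and MT-CO1, the other complex IV subunits of the mitochondrial genome, with means of 17793 and 16731 FPKM. MT-CO1 carries the site where oxygen is reduced. The ATP synthase subunits MT-ATP8 and MT-ATP6, which belong to its membrane part, averaged 12796 and 9858 FPKM. The complex I subunits MT-ND4L, MT-ND3, MT-ND4, MT-ND2 and MT-ND1 averaged 6868, 5958, 4716, 3724 and 2454 FPKM. MT-CYB, the cytochrome b of complex III, averaged 4822 FPKM. The lowest were the complex I subunits MT-ND5 and MT-ND6, with means of 1269.6 and 926 FPKM. Ordered by mean, the range of each gene over the 24 libraries overlapped that of the next gene.

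Neighbouring coding sequences share bases on the same strand in 3 places: MT-ATP8 with MT-ATP6, MT-ND4L with MT-ND4, and MT-ATP6 with MT-CO3 by 1 base. MT-ATP8 and MT-ATP6 lie on 1 mature mRNA, as do MT-ND4L and MT-ND4, so fragments there cannot be assigned to 1 gene by position alone. The short partners are shown with the shared stretch in capitals, since it bears on how far their values are their own. They were read from the GENCODE 29 transcripts of GRCh38, plus strand. MT-ATP8 lies at chrM:8366-8572 and shares 46 of its 207 bases with MT-ATP6.
MT-ATP8: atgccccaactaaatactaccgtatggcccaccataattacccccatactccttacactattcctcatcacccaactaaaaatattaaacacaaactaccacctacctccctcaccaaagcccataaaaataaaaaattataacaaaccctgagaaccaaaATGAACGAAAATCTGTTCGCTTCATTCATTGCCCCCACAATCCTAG
MT-ND4L lies at chrM:10470-10766 and shares 7 of its 297 bases with MT-ND4.
MT-ND4L: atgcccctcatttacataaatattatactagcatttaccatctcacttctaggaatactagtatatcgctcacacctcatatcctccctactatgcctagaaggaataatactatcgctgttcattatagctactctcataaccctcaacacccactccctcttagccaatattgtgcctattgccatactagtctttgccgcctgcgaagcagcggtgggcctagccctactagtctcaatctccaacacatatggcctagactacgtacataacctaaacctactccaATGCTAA
Over the 24 libraries log2(FPKM + 0.5) of MT-ATP8 and MT-ATP6 had a Pearson r of 0.94, and that of MT-ND4L and MT-ND4 an r of 0.97. All correlations given here are descriptions over libraries that share clones, constructs and an FPKM sum.

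The highest correlation among the 78 pairs of mitochondrial mRNAs, 0.99, was between MT-ND5 and MT-ND6. These genes are neighbours on opposite strands, with MT-ND5 at chrM:12337-14148 on the plus strand and MT-ND6, the only mRNA of the minus strand, at chrM:14149-14673. The library kit marks the strand, per the labels, but the strand setting of the counting is not given in the sources used here, so fragments of one may be counted for the other and the MT-ND5 and MT-ND6 values are uncertain. MT-ND5 and MT-ND6 correlated least with MT-ND3, at -0.06 and -0.05, and with MT-ND2, at 0.14 and 0.08, and more with other genes, at 0.81 and 0.80 with MT-CO1, 0.77 and 0.72 with MT-ND4L, 0.72 and 0.70 with MT-ND4 and 0.70 and 0.67 with MT-CYB. The median r over all 78 pairs was 0.76.

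**Figure D1:**
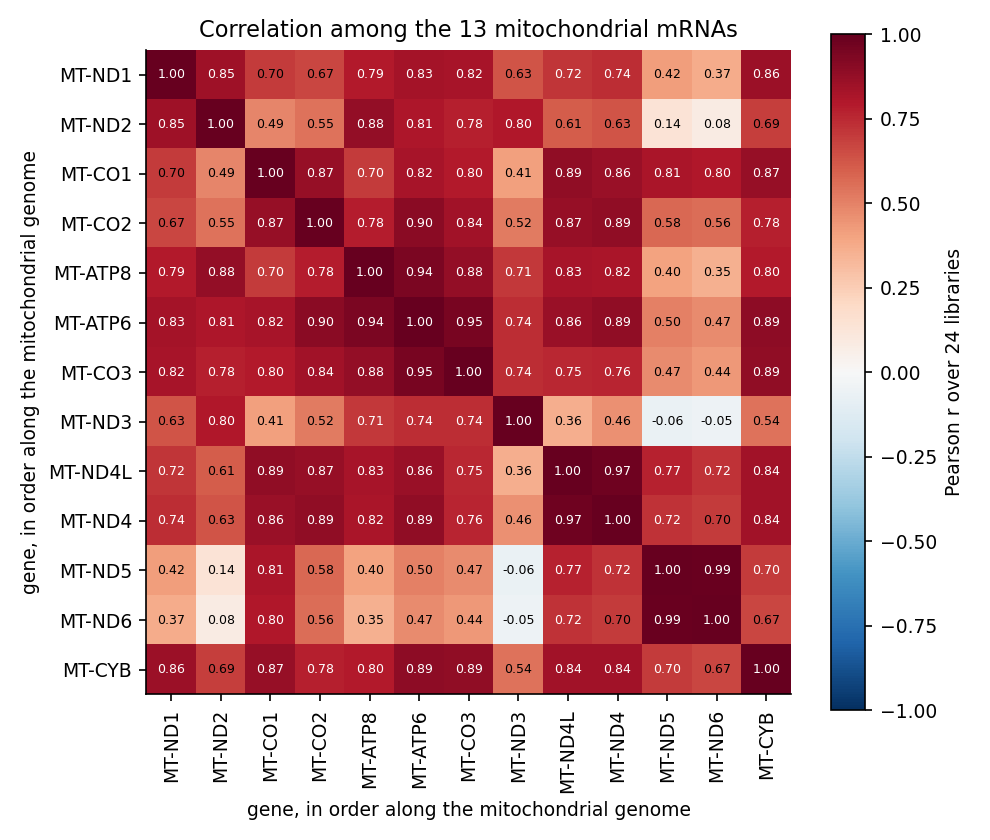
Pearson r of log2(FPKM + 0.5) over 24 libraries between each pair of the 13 mitochondrial mRNAs, with genes in their order along the mitochondrial genome on both axes and the r printed in each cell. MT-ND5 and MT-ND6 have an r of 0.99 with each other, of 0.81 and 0.80 with MT-CO1 and of -0.06 and -0.05 with MT-ND3.

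Mean levels of the nuclear subunits ran from 1.42 to 494 FPKM, with a median of 103 FPKM, so that 13 of 13 mitochondrial mRNAs lay above 44 of 44 nuclear subunits. In complex I the highest was NDUFB1, an accessory subunit of the membrane arm, at 269.6 FPKM, and the lowest was NDUFS7, which holds the last iron-sulfur cluster before ubiquinone, at 1.42 FPKM. In complex II, SDHD, one of the pair of membrane anchors, averaged 183 FPKM and SDHA, the flavoprotein that oxidises succinate, 65.4 FPKM. In complex III, UQCRH, the hinge protein near cytochrome c1, averaged 352 FPKM and UQCRFS1, the Rieske iron-sulfur protein, 40.8 FPKM. In complex IV, COX4I1, a regulatory subunit that binds adenine nucleotides, averaged 494 FPKM and COX5B, a zinc-binding subunit, 57.9 FPKM.

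Spread also differed among the members. The SD of log2(FPKM + 0.5) over the 24 libraries was largest for NDUFS7, 0.95, whose values ran from 0.104 to 8.49 FPKM. Its lowest value lies below the 0.5 added before the log, so the values are near the floor. NDUFS7 has 60.8% GC. Its highest value belongs to replicate 3 of the vector clones at 100 nM and week 12, the library with the steepest rise with GC. The SD was smallest for NDUFA10, an accessory subunit of complex I, 0.177, with 71.1 to 109.5 FPKM. The median SD was 0.38 for the mitochondrial mRNAs, 0.34 for the nuclear subunits and 0.36 for all 14228 genes tested.

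Together the 13 mitochondrial mRNAs held 10.3% to 24.5% of a library's FPKM, with a median of 13.1%, and the 44 nuclear subunits 0.494% to 0.962%. The ratio of the 2 sums ran from 12.0 to 49.6. In miR-186 clones at week 12 the mitochondrial share was 19.8, 24.5 and 15.9% at 100 nM, against 13.6, 11.8 and 12.98% at 0 nM. In vector clones at week 12 it was 19.9, 17.5 and 12.7% at 100 nM, against 12.9, 12.9 and 13.3% at 0 nM. All 3 libraries of the miR-186 clones at 100 nM lay above the 3 at 0 nM, while 1 library of the vector clones at 100 nM lay below its 3 controls. In bulk RNA, more transcripts per mitochondrion, more mitochondria per cell and a changed mix of cells cannot be told apart, nor can fewer cells of a type and less RNA per cell.

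At week 29 the mitochondrial share was 15.1, 10.3 and 13.3% in miR-186 clones at 100 nM, against 12.9, 18.7 and 12.4% in miR-186 clones at 0 nM. It was 11.2, 13.2 and 13.6% in vector clones at 100 nM, against 10.99, 13.1 and 10.4% in vector clones at 0 nM. The groups overlapped in both cases, and replicate 2 of the miR-186 clones at 0 nM stood above the other 11 libraries of that week.

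**Figure D2:**
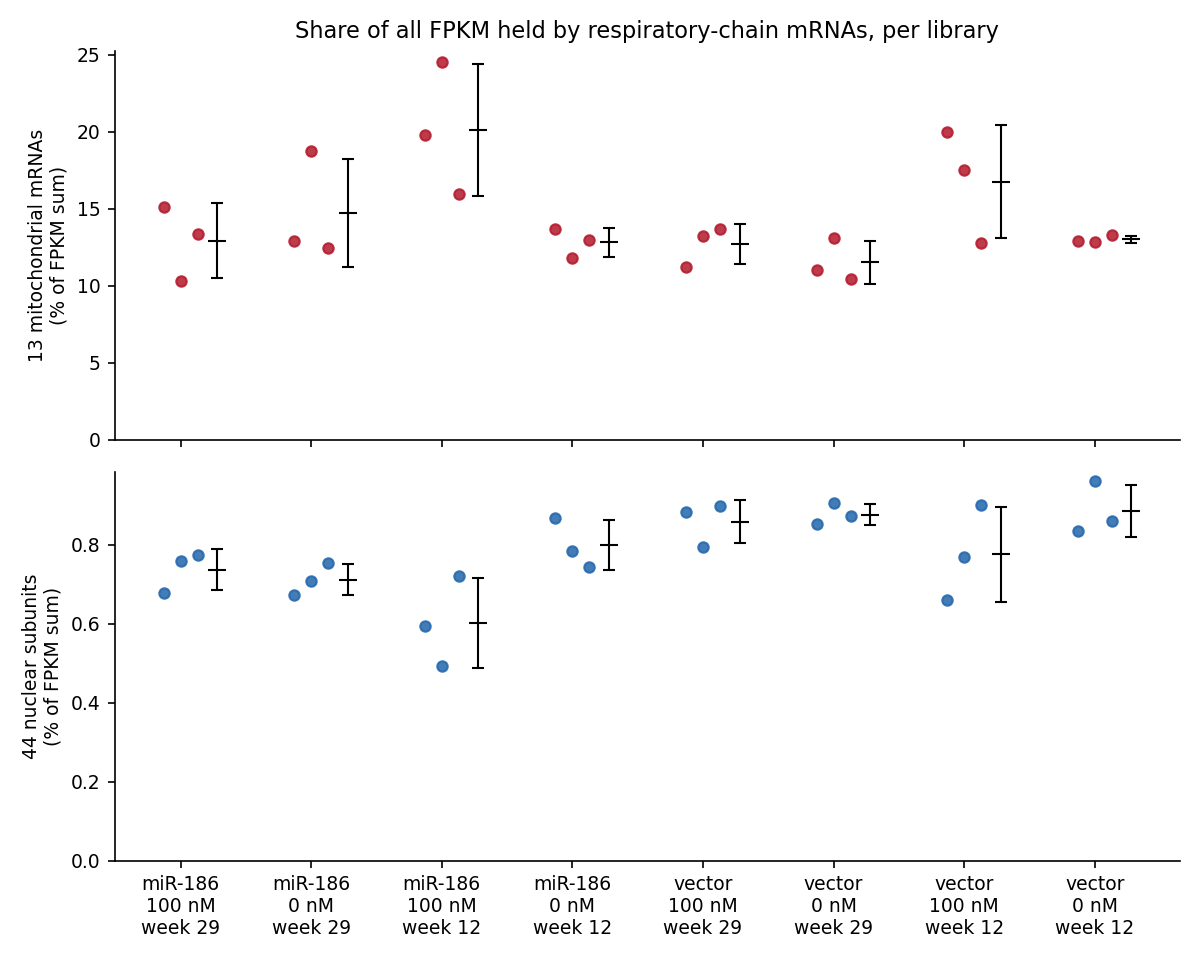
Percent of each library's summed FPKM held by the 13 mitochondrial mRNAs (upper panel) and by the 44 nuclear subunits (lower panel) in the 8 groups, with 1 point per library and the mean with its SD (n = 3) as a bar. The mitochondrial share reached 24.5% and the nuclear share was 0.494% in the same library, replicate 2 of the miR-186 clones at 100 nM and week 12.

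Over the 24 libraries the log2 sums of the 2 sets had a Pearson r of -0.59 and a Spearman rho of -0.33. Without the 2 libraries farthest from the median mitochondrial sum r was -0.53, and for deviations from the group means it was -0.26. The sets share a total, since a larger mitochondrial share leaves less for other genes. When nuclear FPKM were rescaled to a common sum without the mitochondrial RNAs, r was -0.55 and rho was -0.28. The rescaled r was -0.39 without the same 2 libraries and -0.24 for deviations from the group means. Pairs of 1 mitochondrial and 1 nuclear gene had a median r of -0.33 over 572 pairs, and the 946 pairs of nuclear subunits a median of 0.47. The highest nuclear pair was UQCRH and COX7C, a small subunit of complex IV, with an r of 0.95, and the lowest was NDUFV1 and COX7A2 with -0.63. NDUFV1 binds NADH and its flavin in complex I, and COX7A2 is another small subunit of complex IV.

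The first comparison asks what 100 nM iAs changed at week 12. In miR-186 clones 11 of the 13 mitochondrial mRNAs were higher at 100 nM than at 0 nM on the log2 scale, with a median change of 0.69 over the 13, while 39 of the 44 nuclear subunits were lower, with a median of -0.45. In vector clones 11 of 13 mitochondrial mRNAs were above 0 with a median of 0.26, and 35 of 44 nuclear subunits were below 0 with a median of -0.35. The median of all 14228 genes tested was 0.02 in miR-186 clones and 0.00 in vector clones. No member passed an adjusted p of 0.05 in limma with Benjamini-Hochberg adjustment in either comparison. Of all genes tested 0.0% passed in miR-186 clones and 1.38% (197 genes) in vector clones, but 0 to 1 genes passed in vector clones when any 1 of the 6 libraries was left out. At an unadjusted p under 0.05 there were 11 mitochondrial mRNAs and 20 nuclear subunits in miR-186 clones, among 1558 genes in all, and 1 and 22 in vector clones, among 4168 genes in all. The 2 iAs comparisons have no libraries in common, and the difference between their effects was tested for each gene: 0 of 57 members and 0 of 14228 genes passed, with 421 genes at an unadjusted p under 0.05.

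Among the mitochondrial mRNAs in miR-186 clones at week 12, libraries at 100 nM and 0 nM did not overlap for 8 of 13, all higher at 100 nM, where 8.82% of all genes tested showed this. MT-CO2 stood at 35033, 38573 and 28207 FPKM at 100 nM, against 22291, 16924 and 22118 FPKM at 0 nM, a log2 change of 0.73 ± 0.20 (SE, n = 3 each, adjusted p = 0.35 in limma). MT-ND1 stood at 3492, 4775 and 2272 FPKM at 100 nM, against 1889, 2025 and 1803 FPKM at 0 nM, a log2 change of 0.82 ± 0.24. MT-ATP6 stood at 14140.0, 17602 and 9665 FPKM at 100 nM, against 7264, 7753 and 8714 FPKM at 0 nM, a log2 change of 0.76 ± 0.24. In each of these genes replicate 2 was the highest and replicate 3 the lowest library at 100 nM, and replicate 3 still lay above the 3 libraries at 0 nM. MT-ND2, MT-ND4, MT-ND4L, MT-CO1 and MT-ATP8 also did not overlap, with log2 changes of 0.80 ± 0.21, 0.56 ± 0.22, 0.58 ± 0.23, 0.66 ± 0.26 and 0.81 ± 0.27. MT-ND3, MT-CO3 and MT-CYB overlapped, with 0.82 ± 0.28, 0.69 ± 0.23 and 0.63 ± 0.27. Without replicate 2 at 100 nM the median over the 13 was 0.50, with 11 of 13 above 0.

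In vector clones at week 12 the non-overlapping mitochondrial mRNA was MT-CO2 alone, 1 of 13, against 19.5% of all genes tested that were higher without overlap. Its values were 33251, 27344 and 24636 FPKM at 100 nM, against 22643, 22752 and 22163 FPKM at 0 nM, a log2 change of 0.32 ± 0.20 (adjusted p = 0.29 in limma). MT-ND1 had 3371, 3242 and 2079 FPKM at 100 nM, against 1725, 1952 and 2112 FPKM at 0 nM, a log2 change of 0.56 ± 0.24, the largest of the 13. The third library at 100 nM lay within the range of the controls in MT-ND1. The changes of MT-ND2, MT-ATP6, MT-ATP8 and MT-CYB were 0.27 ± 0.21, 0.31 ± 0.24, 0.33 ± 0.27 and 0.28 ± 0.27, and those of MT-ND3, MT-ND4, MT-ND4L, MT-CO1 and MT-CO3 were 0.08 ± 0.28, 0.25 ± 0.22, 0.26 ± 0.23, 0.08 ± 0.26 and 0.21 ± 0.23.

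MT-ND5 and MT-ND6 were the 2 mitochondrial mRNAs below 0 in both iAs comparisons of week 12. In miR-186 clones their log2 changes were -0.03 ± 0.30 and -0.09 ± 0.33, and in vector clones -0.14 ± 0.30 and -0.28 ± 0.33. MT-ND6 stood at 1083, 1010.0 and 488 FPKM in vector clones at 100 nM, against 858, 1255 and 889 FPKM at 0 nM. Replicate 3 at 100 nM was the lowest of these 6 libraries, and without it the change of MT-ND6 in vector clones was 0.09, 13 of 13 mitochondrial mRNAs were above 0 with a median of 0.42, and the nuclear median was -0.50.

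The nuclear subunits below 0 came from all 4 complexes. In miR-186 clones at week 12, 19 of 22 subunits of complex I, 4 of 4 of complex II, 6 of 7 of complex III and 10 of 11 of complex IV were lower at 100 nM, and 19 of 44 did not overlap, against 8.16% of all genes tested. In vector clones the counts were 18 of 22, 4 of 4, 5 of 7 and 8 of 11, with 21 of 44 lower without overlap, against 17.7% of all genes. NDUFB3, an accessory subunit of the membrane arm of complex I, in miR-186 clones stood at 42.6, 33.7 and 56.8 FPKM at 100 nM, against 83.4, 73.2 and 66.8 FPKM at 0 nM, a log2 change of -0.77 ± 0.24. In vector clones it stood at 49.5, 57.4 and 47.8 FPKM at 100 nM, against 77.7, 129.8 and 81.0 FPKM at 0 nM, a change of -0.86 ± 0.24 (adjusted p = 0.056 in limma). The groups did not overlap in either construct, and in vector clones replicate 2 at 0 nM lay well above the other libraries. UQCRB, which binds ubiquinone in complex III, had the smallest adjusted p of any nuclear subunit in vector clones, 0.052, with 155, 138 and 162 FPKM at 100 nM, against 238, 297 and 234 FPKM at 0 nM, and a change of -0.75 ± 0.20. In miR-186 clones its change was -0.56 ± 0.20.

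SDHD stood at 126, 149.5 and 165 FPKM in vector clones at 100 nM, against 209, 266 and 233 FPKM at 0 nM, a log2 change of -0.69 ± 0.22 (adjusted p = 0.068 in limma), and in miR-186 clones its change was -0.55 ± 0.22. SDHC, the other membrane anchor of complex II, had log2 changes of -0.55 ± 0.17 in vector clones and -0.49 ± 0.17 in miR-186 clones, both without overlap. In complex IV, NDUFA4 had the smallest p in vector clones, with a change of -0.65 ± 0.21 (adjusted p = 0.074). NDUFA4 was long assigned to complex I and is counted here with complex IV. COX5A, which with COX4I1 forms an early assembly intermediate of complex IV, was higher without overlap in miR-186 clones, at 401, 352 and 385 FPKM at 100 nM, against 332, 232 and 327 FPKM at 0 nM, a change of 0.37 ± 0.20.

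The change of the nuclear subunits went with the GC content of the gene. In vector clones at week 12 the Pearson r between change and GC content was 0.79 across the 44 nuclear subunits and 0.70 across 14208 genes, and in miR-186 clones 0.50 and 0.41. Genes are not independent replicates, so these are descriptions. The 22 nuclear subunits below the median GC content were all below 0 in both comparisons. The 7 subunits above 57% GC (NDUFS7, NDUFS8, NDUFV1, NDUFB10, UQCRC1, CYC1 and COX8A, a limit chosen after the values were seen) were all above 0 in vector clones, with a median of 0.81, and 4 of 7 were above 0 in miR-186 clones, with a median of 0.045. After a correction of each library for GC content the median of the 7 was -0.0058 in vector clones. NDUFS8, an iron-sulfur subunit of complex I, shows the pattern by library: 32.8, 47.2 and 119.7 FPKM in vector clones at 100 nM, against 28.7, 20.7 and 40.3 FPKM at 0 nM, a change of 0.97 ± 0.45. The highest value, 119.7 FPKM, belongs to replicate 3, the library with the steepest rise with GC, and without it the median of the 7 subunits was 0.44 with 6 of 7 above 0.

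With the GC correction the set medians in the same comparisons were 0.71 for the mitochondrial mRNAs and -0.35 for the nuclear subunits in miR-186 clones, and 0.45 and -0.22 in vector clones. Rescaling without the mitochondrial RNAs shifted the median of all genes by 0.06 in miR-186 clones and 0.14 in vector clones. Relative to that shifted median the mitochondrial and nuclear medians were 0.67 and -0.47 in miR-186 clones and 0.28 and -0.32 in vector clones. The part of GC content in these changes beyond the correction was not tested.

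**Figure D3:**
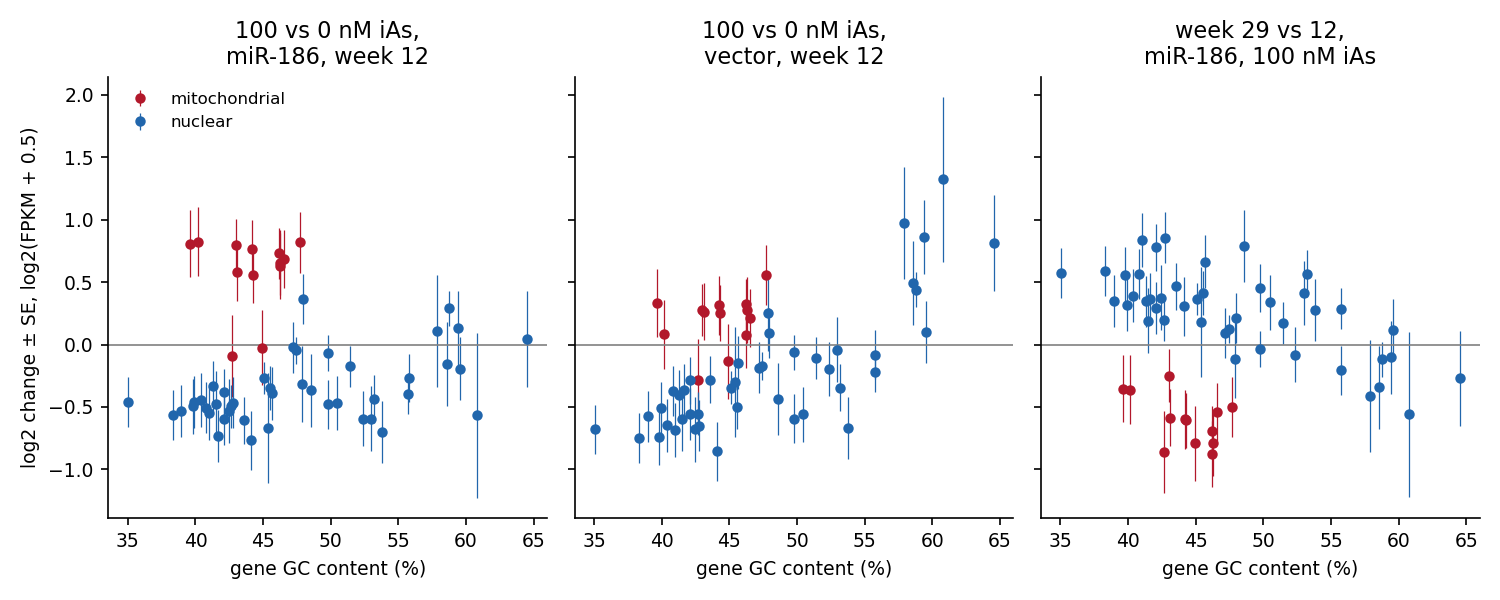
Log2 change on log2(FPKM + 0.5) with its SE (vertical axis) against gene GC content in percent (horizontal axis) for 13 mitochondrial mRNAs (red) and 44 nuclear subunits (blue) in 3 comparisons. In vector clones at week 12 the 7 nuclear genes above 57% GC lie above 0 and most others below, and the slope is turned round between weeks in miR-186 clones at 100 nM.

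At week 29 the 2 sets differed less between 100 and 0 nM. In miR-186 clones the medians were -0.25 for the mitochondrial mRNAs and 0.00 for the nuclear subunits. In vector clones they were -0.02 and -0.13. Again 0 of 57 members passed in limma in either comparison, where 0.0% of all genes tested passed in both. At an unadjusted p under 0.05 there were 1 mitochondrial mRNA and 0 nuclear subunits in miR-186 clones, among 312 genes in all, and 0 members in vector clones, among 555 genes. The median in miR-186 clones rests on replicate 2 at 0 nM, which had the highest mitochondrial share of that week: without it the mitochondrial median was 0.00. The difference of the iAs effects, week 29 minus week 12, was below 0 for 13 of 13 mitochondrial mRNAs in miR-186 clones, with a median of -0.88, and above 0 for 40 of 44 nuclear subunits, with a median of 0.40. Tested gene by gene, 0 of 14228 genes passed. This difference holds replicate 2 at 0 nM of week 29 and also replicate 2 at 100 nM of week 12. Without the latter the iAs medians of week 12 were 0.50 for the mitochondrial mRNAs and -0.28 for the nuclear subunits, against 0.69 and -0.45 with it.

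**Figure D4:**
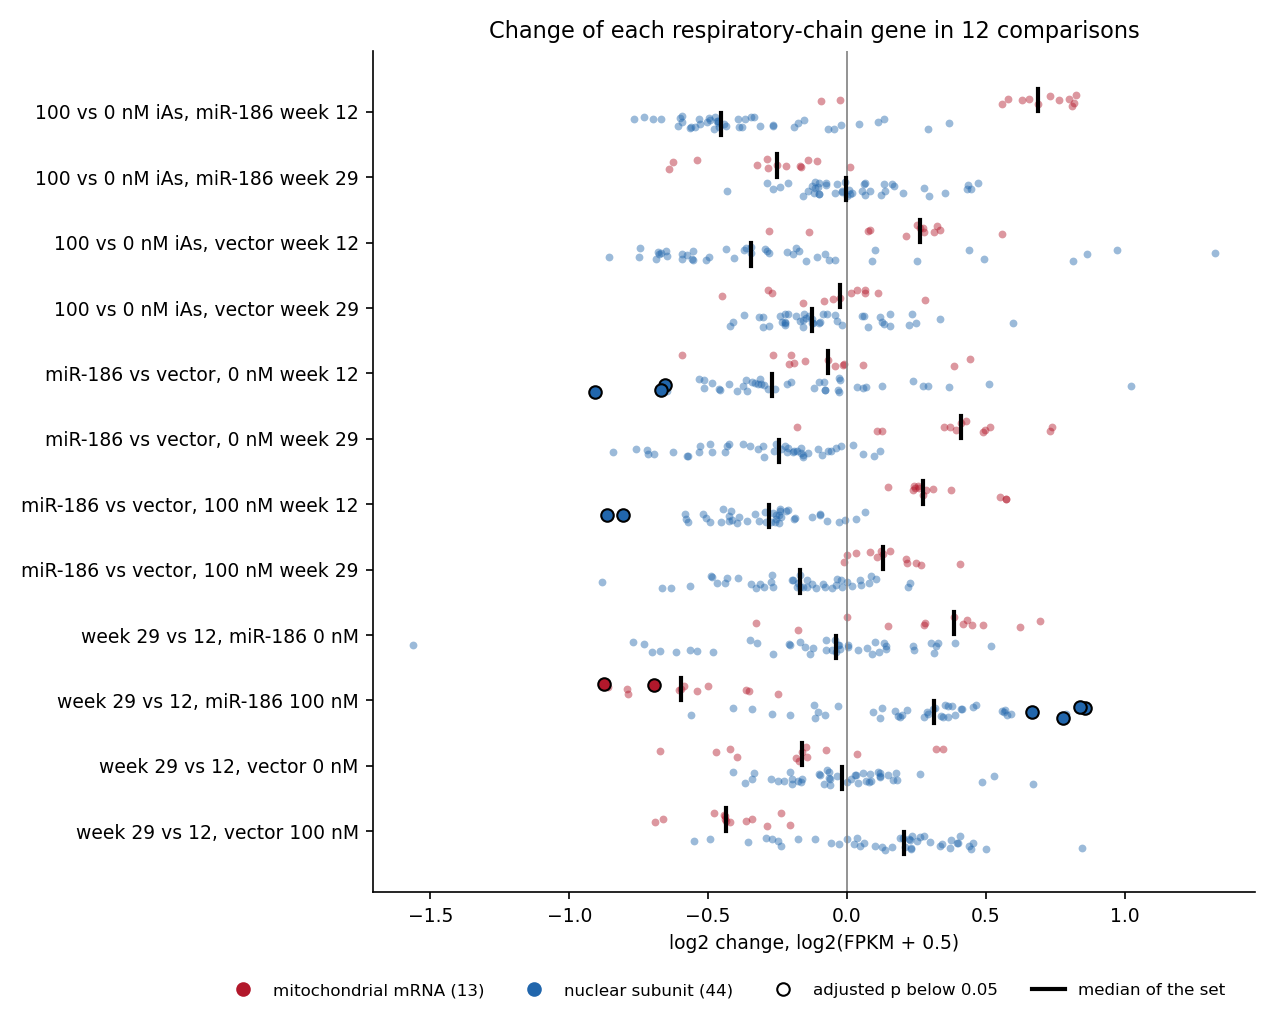
Log2 change of each mitochondrial mRNA (red) and nuclear subunit (blue) in the 12 comparisons of 2 groups, listed on the vertical axis, with the median of each set as a black bar and members with an adjusted p below 0.05 outlined. The sets lie farthest apart for iAs in miR-186 clones at week 12, with medians of 0.69 and -0.45, and their order is reversed between weeks in miR-186 clones at 100 nM, with -0.60 and 0.31.

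The second question is how miR-186 clones differ from vector clones. Nuclear subunits were lower in miR-186 clones at either dose and week: 42 of 44 were below 0 at 100 nM and week 12 (median -0.28), 34 of 44 at 0 nM and week 12 (median -0.27), 35 of 44 at 100 nM and week 29 (median -0.17) and 40 of 44 at 0 nM and week 29 (median -0.25). The mitochondrial medians were 0.28, -0.07, 0.13 and 0.41 in the same order. The comparisons at 100 and 0 nM share no libraries. The labels describe 3 clonal lines per construct for all groups, however, so these 4 comparisons are not independent of each other. In limma, 2 nuclear subunits passed at 100 nM and week 12, where 2.02% of all genes tested passed, 3 passed at 0 nM and week 12, where 3.44% did, and none passed at week 29, where 0.864% did at 100 nM and 2.86% at 0 nM. At an unadjusted p under 0.05 there were 3 nuclear subunits at 100 nM and 8 at 0 nM in week 29. With 2 of 57 and 3 of 57 members called, these counts lie near the share of all genes called. No mitochondrial mRNA passed in any of these 4 comparisons, with at most 3 at an unadjusted p under 0.05. Without replicate 2 of the miR-186 clones from week 12 at 100 nM, the mitochondrial and nuclear medians of that comparison were 0.08 and -0.20. Without replicate 2 of the miR-186 clones from week 29 at 0 nM, they were 0.16 and -0.34.

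NDUFB10, an accessory subunit of the membrane arm of complex I (GRCh38 chromosome 16, 1959508 to 1961975, plus strand), fell in miR-186 clones at week 12 at both doses. With 100 nM iAs its level was 108, 114 and 92.3 FPKM in miR-186 clones, against 159, 160.2 and 239 FPKM in vector clones, a log2 change of -0.80 ± 0.14 (adjusted p = 0.004, limma). At 0 nM it stood at 91.0, 82.7 and 82.3 FPKM in miR-186 clones, against 134, 134 and 136 FPKM in vector clones, a change of -0.66 ± 0.14 (adjusted p = 0.012). The groups did not overlap at either dose, and replicate 3 of the vector clones at 100 nM was the highest library. At week 29 its changes were -0.57 ± 0.14 at 100 nM and -0.49 ± 0.14 at 0 nM, again without overlap and with adjusted p of 0.056 and 0.066. Under the alternatives that kept all libraries these changes ran from -0.66 to -0.31 at 100 nM and from -0.51 to -0.22 at 0 nM. NDUFB10 has 58.8% GC. Across the 44 nuclear subunits the construct change at week 29 had an r with GC content of -0.53 at 100 nM and -0.52 at 0 nM. At week 12 that r was -0.33 and 0.54.

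NDUFB1 (GRCh38 chromosome 14, 92116122 to 92121917, minus strand) also fell at both doses at week 12. With 100 nM iAs its level was 157, 139.8 and 199 FPKM in miR-186 clones, against 277, 318 and 301 FPKM in vector clones, a log2 change of -0.87 ± 0.21 (adjusted p = 0.037, limma). At 0 nM it stood at 274, 211 and 199 FPKM in miR-186 clones, against 382, 583 and 343 FPKM in vector clones, a change of -0.91 ± 0.21 (adjusted p = 0.020). Replicate 2 of the vector clones at 0 nM was the highest library, and the groups did not overlap at either dose. At week 29 the changes were -0.43 ± 0.21 at 100 nM and -0.53 ± 0.21 at 0 nM. Genes near NDUFB1 were lower too: 10 of the 10 other tested genes within 1 Mb on either side were below 0 at week 12 at both doses, with medians of -0.72 at 100 nM and -0.73 at 0 nM, and 2 and 5 of them passed in limma. The part of this region in the change of NDUFB1 was not tested. With 1 library left out in turn, the call of NDUFB1 held in 1 of 6 fits at 100 nM and 3 of 6 at 0 nM, and that of NDUFB10 in 6 of 6 and 5 of 6. When limma was fitted to only the compared groups, no call of a member held in this or any other comparison.

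UQCRC2, a core subunit of complex III (GRCh38 chromosome 16, 21952660 to 21983660, plus strand), fell in miR-186 clones at week 12 without iAs. It stood at 192, 161 and 197 FPKM in miR-186 clones, against 279.6, 326 and 270.3 FPKM in vector clones, a log2 change of -0.67 ± 0.18 (adjusted p = 0.040, limma), and the groups did not overlap. The call was lost without any 1 of the 6 libraries (adjusted p 0.054 to 0.17). At 100 nM its change was -0.52 ± 0.18 (adjusted p = 0.15). Of 16 other tested genes within 1 Mb of UQCRC2, 8 were below 0 at 0 nM and week 12, with a median of -0.08, and of 59 around NDUFB10, 26 were below 0 with a median of 0.07, while the genes around NDUFB10 had medians of -0.46 at 100 nM and week 12, -0.48 at 100 nM and week 29, and -0.53 at 0 nM and week 29. The smallest p of complex II was that of SDHA at 100 nM and week 29, with 55.1 ± 4.57 FPKM in miR-186 clones and 77.2 ± 5.38 FPKM in vector clones (SD, n = 3 each) and a change of -0.49 ± 0.14 (adjusted p = 0.11), and of complex IV that of COX5B at 0 nM and week 29, with a change of -0.76 ± 0.26 (adjusted p = 0.11). The largest mitochondrial changes were those of MT-ND6 and MT-ND5 at 0 nM and week 29, 0.73 ± 0.33 and 0.74 ± 0.30, neither of which passed. Without replicate 2 of the miR-186 clones of that group they were 0.37 and 0.40.

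The third question is what differed between weeks 29 and 12. In miR-186 clones at 100 nM the pattern of iAs at week 12 was turned round: 13 of 13 mitochondrial mRNAs were lower at week 29, with a median of -0.60, and 34 of 44 nuclear subunits were higher, with a median of 0.31. In limma 2 mitochondrial mRNAs fell and 4 nuclear subunits rose, where 5.07% of all genes tested fell and 7.11% rose, 12.2% in either direction, so the share of members called was near that of all genes. This comparison and that of iAs at week 12 share the 3 libraries of miR-186 clones from week 12 at 100 nM, including replicate 2. Without that replicate the medians were -0.49 and 0.14, no member passed, and the count of all genes called was 68, against 1732 with it. That count was 301 without replicate 1 and 518 without replicate 3 of the miR-186 clones from week 29 at 100 nM.

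The deviations of same-numbered libraries from their group means correlated in this comparison (r of 0.34, 0.41 and 0.39 across genes), so the number was also fitted as a block. The block gave each number 1 effect over all groups of a construct. Between doses in miR-186 clones the r were -0.30, 0.59 and -0.04 at week 12 and -0.11, 0.28 and 0.13 at week 29. The block thus rests on a pairing that not all of its groups show. With the block 5 mitochondrial mRNAs fell (MT-CYB, MT-CO1, MT-CO2, MT-ND5 and MT-ND6) and 10 nuclear subunits rose (NDUFS1, NDUFS4, SDHB, SDHD, NDUFB9, UQCRFS1, NDUFA5, NDUFB8, COX6A1 and UQCRB), and the 6 members called without the block were among these 15. The block raised the calls among all genes tested as well, to 3194 of 14228 or 22.4%, against 1732 or 12.2% without it.

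MT-CO1 (chrM:5904-7445, plus strand) stood at 15707, 12049.5 and 14592 FPKM at week 29 in the miR-186 clones with 100 nM iAs, against 23160.3, 32993 and 22356 FPKM at week 12, a log2 change of -0.88 ± 0.26 (adjusted p = 0.038, limma). MT-CO2 (chrM:7586-8269, plus strand) stood at 24647, 17569.6 and 20830.1 FPKM at week 29, against 35033, 38573 and 28207 FPKM at week 12, a change of -0.69 ± 0.20 (adjusted p = 0.036). In both genes the highest library of week 29 lay below the lowest of week 12. The other complex IV mRNA, MT-CO3, overlapped, with -0.54 ± 0.23. The log2 change was -0.79 ± 0.27 for MT-CYB (adjusted p = 0.055), -0.86 ± 0.33 for MT-ND6 and -0.79 ± 0.30 for MT-ND5, each without overlap. The smallest change was that of MT-ND2, -0.25 ± 0.21.

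Among the nuclear genes, NDUFS1, the largest subunit of complex I and a carrier of iron-sulfur clusters (GRCh38 chromosome 2, 206114817 to 206159603, minus strand), rose: it stood at 81.5, 62.0 and 87.5 FPKM at week 29, against 49.5, 31.4 and 55.5 FPKM at week 12, a log2 change of 0.78 ± 0.19 (adjusted p = 0.016, limma). NDUFS4, an accessory subunit of the same arm whose loss in patients causes Leigh syndrome (chromosome 5, 53560633 to 53683340, plus strand), stood at 119, 122 and 131 FPKM at week 29, against 76.3, 45.7 and 91.0 FPKM at week 12, a change of 0.86 ± 0.21 (adjusted p = 0.017). SDHD (chromosome 11, 112086773 to 112120013, plus strand) stood at 171, 162 and 224 FPKM at week 29, against 123, 69.5 and 126 FPKM at week 12, a change of 0.84 ± 0.22 (adjusted p = 0.021). In all 3 genes replicate 2 of week 12 was the lowest of the 6 libraries, and the groups did not overlap. NDUFB9, an accessory subunit of the membrane arm (chromosome 8, 124539101 to 124580648, plus strand), stood at 153, 251 and 214 FPKM at week 29, against 112, 133 and 138 FPKM at week 12, a change of 0.67 ± 0.21 (adjusted p = 0.046). SDHB, the iron-sulfur subunit of complex II, overlapped, with a change of 0.79 ± 0.29 (adjusted p = 0.073). In complexes III and IV the smallest p were those of UQCRB and COX6A1, with changes of 0.59 ± 0.20 and 0.57 ± 0.20 and adjusted p of 0.057 and 0.067.

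Here too the change went with GC content, with an r of -0.70 across the 44 nuclear subunits and -0.53 across 14208 genes. The 22 nuclear subunits below the median GC content were all above 0, and 6 of the 7 above 57% GC were below 0. With the GC correction the medians were -0.79 for the mitochondrial mRNAs and 0.22 for the nuclear subunits, and the change of SDHD was 0.56 and no longer passed (adjusted p = 0.059). That of NDUFB9 was 0.53 and did not pass either (adjusted p = 0.17), while the calls of NDUFS1 and NDUFS4 held. Rescaling without the mitochondrial RNAs shifted the median of all genes by -0.14, and relative to the shifted median the set medians were -0.64 and 0.27.

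**Figure D5:**
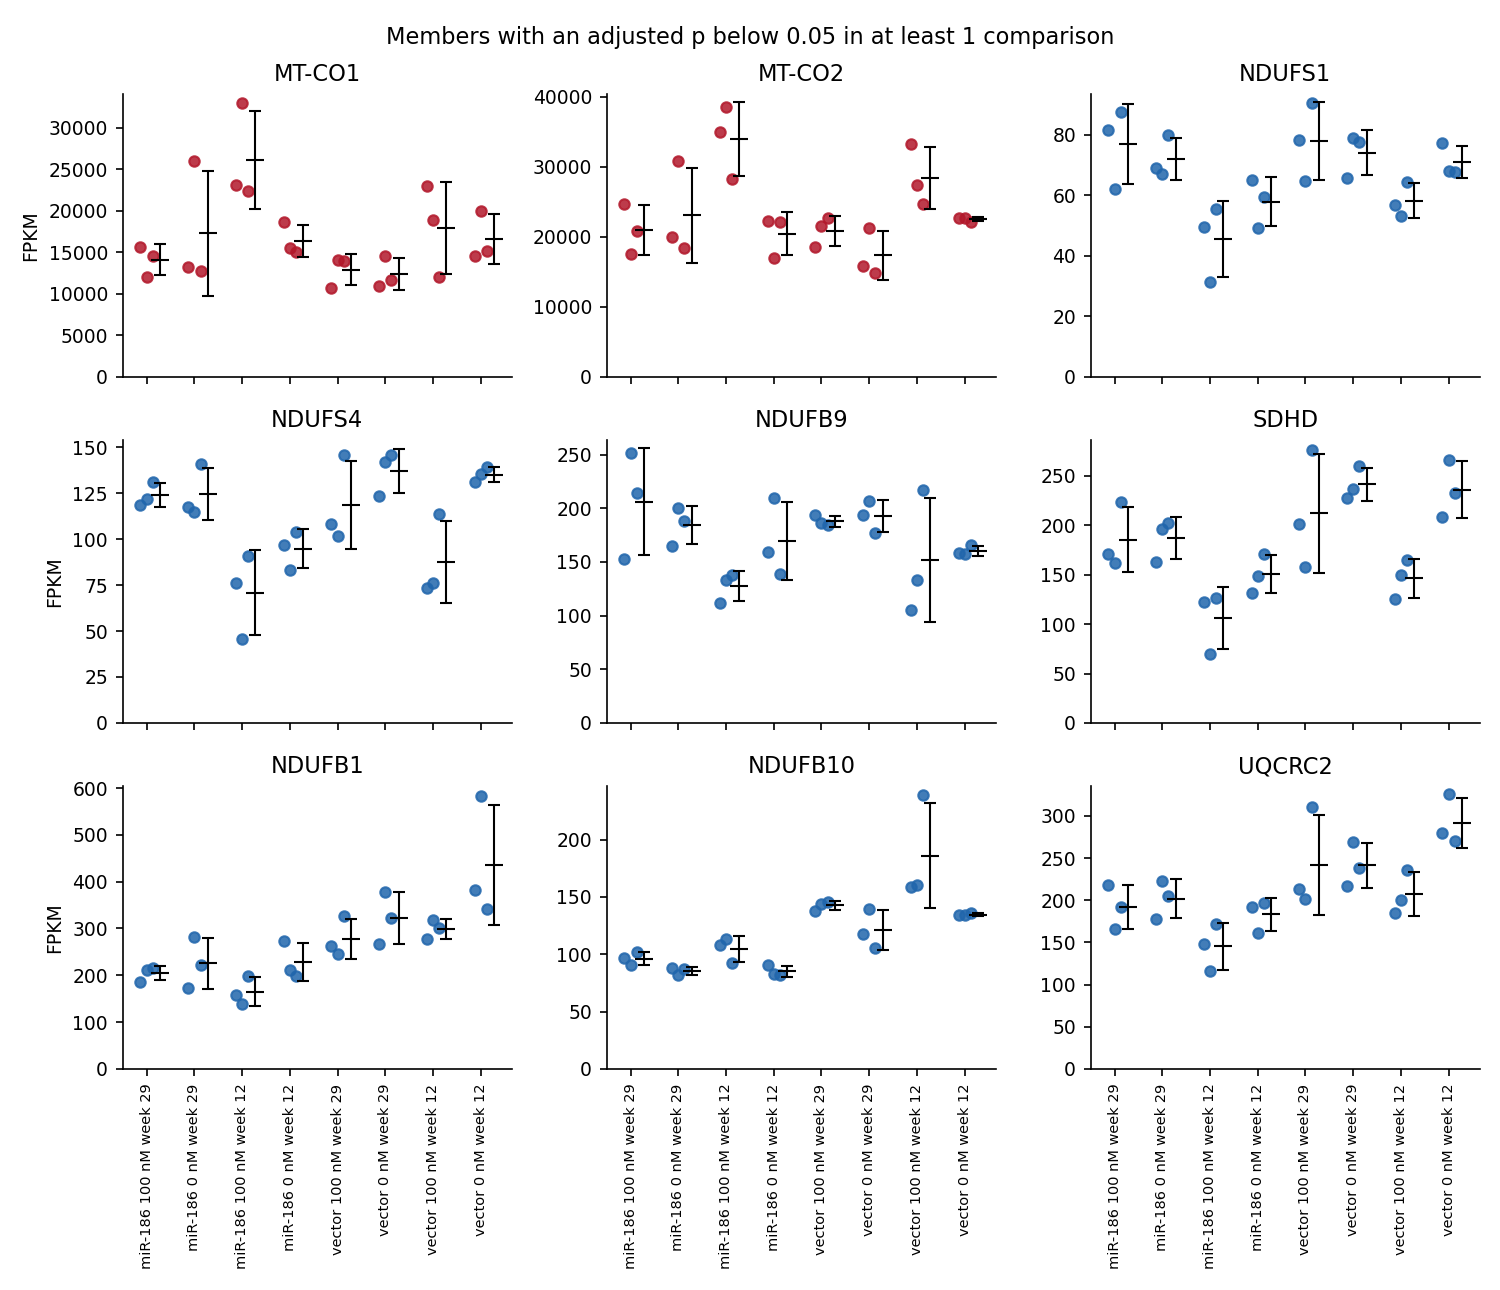
FPKM of the 9 members with an adjusted p below 0.05 in at least 1 comparison, in the 8 groups on the horizontal axis, with 1 point per library and the mean with its SD (n = 3) as a bar. MT-CO1 and MT-CO2 are highest at week 12 in miR-186 clones with 100 nM iAs, the group in which NDUFS1, NDUFS4 and SDHD have their lowest libraries, while NDUFB1 and NDUFB10 are lower in miR-186 than in vector clones.

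In the other comparisons of weeks no member passed in limma. In miR-186 clones at 0 nM, where 2.9% of all genes tested passed, the medians were 0.39 for the mitochondrial mRNAs and -0.04 for the nuclear subunits, and without replicate 2 of week 29 the mitochondrial median was 0.06. In vector clones at 100 nM, where 0.183% of genes passed, 13 of 13 mitochondrial mRNAs were below 0 with a median of -0.43, and 33 of 44 nuclear subunits were above 0 with a median of 0.21. In vector clones at 0 nM, where 0.907% passed, the medians were -0.16 and -0.02. At an unadjusted p under 0.05 the members numbered 2 mitochondrial and 7 nuclear in miR-186 clones at 0 nM, 4 and 6 in vector clones at 100 nM, and 0 and 0 in vector clones at 0 nM.

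Other genes of mitochondrial function are given from named lists. Their counts between weeks include replicate 2 of the miR-186 clones from week 12 at 100 nM, without which 68 in place of 1732 genes of the whole table passed and no gene of these lists did. The medians without it were 0.30 for the mitochondrial ribosome, 0.24 for the assembly factors and 0.30 for the genes of mitochondrial DNA upkeep and expression. Between weeks in miR-186 clones at 100 nM, 24 of 77 subunits of the mitochondrial ribosome, which translates the 13 mitochondrial mRNAs, rose and 0 fell in limma, with a median of 0.35. Of these subunits 12 rose without replicate 1 and 9 without replicate 3 of week 29. MRPL47 stood at 77.3 ± 1.25 FPKM at week 29 and 38.3 ± 10.3 FPKM at week 12 (SD, n = 3 each), a log2 change of 1.04 ± 0.20 (adjusted p = 0.007), and MRPL15 at 121 ± 8.65 FPKM at week 29 and 68.2 ± 16.4 FPKM at week 12, a change of 0.85 ± 0.17. Of 45 assembly factors of the respiratory complexes, 9 rose and 0 fell, with a median of 0.31, among them NDUFAF2, an assembly factor of complex I (0.95 ± 0.19), and TMEM126B, which acts in building its membrane arm (1.20 ± 0.25). Of 16 nuclear ATP synthase genes, 3 rose (ATP5PB, 0.56 ± 0.15, ATP5PO, 0.63 ± 0.18, and ATP5MG, 0.58 ± 0.18), with a median of 0.35. Of 15 further complex I subunits, NDUFA6 (0.87 ± 0.21) and NDUFA12 (0.64 ± 0.18) rose. In all of these lists the background is the 7.11% of genes tested that rose.

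Of 34 genes for the upkeep and expression of mitochondrial DNA, 6 rose and 2 fell, where 7.11% of all genes tested rose and 5.07% fell, the background of the lists that follow too. SSBP1, the single-strand binding protein of mitochondrial DNA, rose, with a change of 0.71 ± 0.13. Of the 2 mitochondrial ribosomal RNAs, MT-RNR1 fell, at 2090.0 ± 147 FPKM in week 29 and 4116 ± 932 FPKM in week 12, a change of -0.96 ± 0.26 (adjusted p = 0.028). MT-RNR2 had a change of -0.62 ± 0.30 on the same scale and did not pass (adjusted p = 0.17), and without replicate 2 of week 12 MT-RNR1 did not either (-0.78 ± 0.29, adjusted p = 0.17). Ribosomal RNAs are not measured evenly in poly(A) libraries. Of 12 regulators of mitochondrial biogenesis, 1 rose and 3 fell: MYC, a transcription factor of growth (-1.33 ± 0.24), PPRC1, a coactivator related to PGC-1 (-0.86 ± 0.23), and TFEB, a regulator of lysosome genes (-1.11 ± 0.34). Of 24 genes of protein import, quality control and mitochondrial shape, 5 rose, among them OPA1, which acts in fusion of the inner membrane (0.63 ± 0.16), and YME1L1, an inner membrane protease (0.52 ± 0.14). Of 17 genes of the citric acid cycle and pyruvate dehydrogenase, 3 rose (SUCLA2, 1.03 ± 0.26, FH, 0.64 ± 0.19, and DLD, 0.64 ± 0.21). Of 5 further subunits of complexes III and IV, COX7A2L rose (0.57 ± 0.19), and of 80 cytosolic ribosomal proteins, 6 rose and 1 fell, a share near that of all genes.

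With iAs in vector clones at week 12, 6 of 77 mitochondrial ribosomal subunits and 4 of 34 genes of mitochondrial DNA upkeep and expression fell in limma, and 0 rose, against 0.731% of genes tested that fell. No gene of either list passed when any 1 of the 6 libraries was left out, when 0 to 1 genes of the whole table did. With the GC correction 1 gene of the whole table fell and 7 rose in this comparison, so nearly all of these calls were lost. The 4 genes of the second list were FASTKD2, an RNA-binding protein of the mitochondrial matrix, TRMT10C, a subunit of mitochondrial RNase P, SSBP1 and TFAM, the packaging and transcription factor of mitochondrial DNA. TFAM stood at 23.2 ± 1.17 FPKM at 100 nM and 37.6 ± 1.32 FPKM at 0 nM (SD, n = 3 each), a log2 change of -0.68 ± 0.17 (adjusted p = 0.048), while 11 of the 13 mitochondrial mRNAs were above 0 in the same comparison. FASTKD2 changed by -0.71 ± 0.16 and TRMT10C by -0.87 ± 0.20. TEFM, the elongation factor of mitochondrial transcription, rose in miR-186 clones at week 29 and 100 nM, with 23.7 ± 1.49 FPKM in miR-186 clones and 13.9 ± 2.06 FPKM in vector clones, a change of 0.76 ± 0.16 (adjusted p = 0.022). Of 404 rows for nuclear copies of mitochondrial genes, 3 passed the filter. MTATP6P1, the most abundant, had an r of 0.97 with the summed mitochondrial mRNAs over the 24 libraries, and MTCO1P12 an r of 0.85, and reads of such copies and of MT-ATP6 and MT-CO1 cannot be told apart where the sequences are alike.

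Promoters were examined because SDHD, NDUFS4 and NDUFS1 were called higher at week 29 than at week 12 in miR-186 clones at 100 nM. None of the 3 calls held without replicate 2 of week 12, in which each had its lowest value. NDUFB9, also called there, had no promoter in the set used. RefSeq promoters (GRCh38.p14, 250 bases before to 50 after the transcription start) were found for 36 of the 44 nuclear subunits. Both strands were searched for motifs of factors known to act on respiratory genes. The core of the NRF1 motif, GCGCATG, was in 7 of the 36 (19.4%), against 4.40% of 34943 promoters, and the core of the YY1 motif, AAGATGG, in 7 (19.4%), against 5.85%. The ETS motif CCGGAAG, bound by GABPA among others, was in 12 (33.3%), against 10.2%. A match is a string of letters and not a measured binding site. The cores were chosen after longer forms had been counted, and the 34943 promoters were not limited to expressed genes. Whether the shares differ from those of other expressed genes was not tested. The 3 promoters are shown with matches in capitals: the NRF1 core, on both strands in overlap, and the ETS motif in SDHD (chr11:112086623-112086922, plus strand), the YY1 core in NDUFS4 (chr5:53560389-53560688, plus strand) and the ETS motif in NDUFS1 (chr2:206159395-206159694, minus strand). The ETS matches read CTTCCGG, the reverse complement.
SDHD: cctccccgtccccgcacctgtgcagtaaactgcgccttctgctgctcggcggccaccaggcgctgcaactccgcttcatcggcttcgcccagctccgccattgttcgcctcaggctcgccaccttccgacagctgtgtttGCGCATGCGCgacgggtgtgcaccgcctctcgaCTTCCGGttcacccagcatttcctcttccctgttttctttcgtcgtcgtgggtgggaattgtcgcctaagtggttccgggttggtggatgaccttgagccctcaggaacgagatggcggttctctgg
NDUFS4: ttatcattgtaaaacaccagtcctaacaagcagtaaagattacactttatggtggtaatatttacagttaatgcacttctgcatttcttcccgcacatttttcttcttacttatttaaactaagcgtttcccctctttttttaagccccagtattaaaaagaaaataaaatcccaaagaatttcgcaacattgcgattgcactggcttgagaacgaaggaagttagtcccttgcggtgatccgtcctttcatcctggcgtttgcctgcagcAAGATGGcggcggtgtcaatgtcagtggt
NDUFS1: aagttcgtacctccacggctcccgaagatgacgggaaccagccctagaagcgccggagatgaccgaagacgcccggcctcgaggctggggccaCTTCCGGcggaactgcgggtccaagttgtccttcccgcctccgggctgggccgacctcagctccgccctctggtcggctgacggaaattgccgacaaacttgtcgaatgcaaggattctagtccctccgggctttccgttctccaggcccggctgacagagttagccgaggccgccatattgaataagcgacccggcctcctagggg
Of these, SDHD alone holds 2 of the motifs, and no motif was found in all 3.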

How the data were processed

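RNA of 24 HaCaT cultures was sequenced as stranded poly(A) libraries in paired ends, per the labels' protocols. The submitters' processing notes name STAR 2.6.0c, Cuffdiff 2.2.1 and the hg38/GRCh38 build, with no order; the annotation release and the strand setting are not given in the sources used here. The authors deposited FPKM per gene, 1 column per library. FPKM are not counts, so read depth is unknown, and a large mitochondrial share lowers the FPKM of other genes.

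Values were taken as log2(FPKM + 0.5), since FPKM need a log scale, and genes whose mean over all libraries reached 0.5 FPKM were kept. The test was limma 3.58.1 in R 4.3.3 with a trended, robust variance, fitted to all 8 groups without a block, with Benjamini-Hochberg adjustment over 14228 genes and a threshold of 0.05. Fold changes on this scale understate those of low genes. All pairs of groups that differ in 1 factor were compared, and differences of effects between constructs or weeks were tested in the same fit. The procedure was first tested on simulated data. GC content is that of the longest GENCODE 29 transcript, and the GC correction fits a spline of 5 degrees of freedom per library. Alternatives were other pseudocounts and filters, a fit on only the compared groups, median-ratio scaling, rescaling without mitochondrial RNAs, GC correction, the replicate number as a block and leaving out each library.

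Named genes are all 13 mitochondrial mRNAs, each nuclear member called in any comparison, the highest, lowest and smallest-p members per complex and family of comparisons, the members of largest and smallest SD, and, from each other list, up to 4 called genes by smallest p; the text gives some further members. The members and lists were chosen with earlier results of these data known. Replicate numbers were taken as pairing libraries where every pair's r of deviations from the group means was over 0.1. This held for iAs in vector clones at week 29 (0.49, 0.46 and 0.62), for the constructs at 0 nM and week 29 (0.21, 0.23 and 0.20), for week 29 against 12 in vector clones without iAs (0.31, 0.52 and 0.17) and for the same in miR-186 clones at 100 nM. The labels give no such pairing. The promoter motifs are short cores, chosen after longer forms had been counted.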

Additional observations from a re-analysis of the deposited data

How the results depend on the processing

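Fitted on only the compared groups, 0 of the 11 calls of single members held. Mitochondrial calls between weeks in miR-186 clones at 100 nM (2) numbered 0 with no filter and on only the compared groups, 4 rescaled without mitochondrial RNAs and with GC correction, 5 with the replicate block and 9 with the replicate block and GC correction. Nuclear calls there (4) numbered 0 on only the compared groups, 10 with the replicate block and 7 with block and GC correction. The calls among all genes in that comparison (1732) numbered 819 with no filter, 103 on only the compared groups, 732 with GC correction, 3194 with the block and 1931 with block and GC correction. Nuclear calls for iAs in vector clones at week 12 (0) numbered 1 at a mean of at least 1 FPKM, with median-ratio scaling and rescaled, and 8 with the block, where all genes called (197) numbered 393, 391, 630 and 1428. All genes called there numbered 0 with no filter and on only the compared groups, 8 with GC correction, 6 with block and GC correction, and 0 to 1 with any library left out. Nuclear calls for miR-186 against vector clones at 0 nM and week 12 (3) numbered 0 on only the compared groups and 5 with the block. At 0 nM and week 29 (0) these nuclear calls numbered 2 with GC correction and 3 with block and GC correction. At 100 nM and week 12 (2) they numbered 1 with no filter, 0 on only the compared groups and at most 3 in any alternative. At 100 nM and week 29 (0) they numbered 1 with median-ratio scaling, rescaled and with the block. Between weeks in miR-186 clones at 0 nM the block gave 1 mitochondrial and 1 nuclear call, and with GC correction 1 nuclear call. In that comparison, and in those of iAs in vector clones at week 12 and of constructs at week 12 and at 100 nM and week 29, not every pair of same-numbered libraries had an r over 0.1. For iAs in vector clones at week 12 the r were 0.07, 0.71 and 0.44. Whether the number pairs libraries there is not given by the labels. The block changed no other count of member calls.

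At 0 nM and week 12 the construct medians were 0.043 for mitochondrial mRNAs rescaled and 0.063 with GC correction, with or without the block, and -0.16 for nuclear subunits under each. The mitochondrial share in vector clones at 0 nM and week 12 was 13.5% of protein-coding FPKM. For iAs in vector clones at week 12, GC correction with or without the block gave -0.0058 for CYC1, -0.022 for COX8A and -0.088 for NDUFB10. Leaving out single libraries gave 0 to 6 mitochondrial and 0 to 9 nuclear calls between weeks in miR-186 clones at 100 nM, 0 to 2 nuclear calls for constructs at 0 nM and week 12 and 1 to 2 at 100 nM. It gave differences of the medians of 0.015 to 0.23 for constructs at 0 nM and week 12 and -0.27 to -0.083 between weeks in vector clones at 0 nM. The nuclear median ran from -0.30 to -0.12 for constructs at 0 nM and week 12. For week 29 against 12 in miR-186 clones at 0 nM the medians ran from 0.061 to 0.51 (mitochondrial) and -0.16 to 0.10 (nuclear). MT-ND6 ran from -0.49 to 0.086 for iAs in vector clones at week 12. The difference for iAs in vector clones at week 29, which is near 0, turned negative without 1 of 2 libraries (lowest -0.015). The count of all genes called moved by over 1.5 times in 46 of 180 changed settings and in 52 of 144 with a library left out. Except where an alternative has fewer libraries, the cause was not tested. With no counts, the depth behind low values is unknown.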
